A study of Mus musculus with 3 samples.

Results

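The somite-like cells of the D6 culture were the 700 cells that carried cluster code 4 in the deposited single-cell table of D6 paraxial mesoderm (PM), out of 5954 cells in that library and 15827 cells in the 3 libraries of the series. The table held 6 cluster codes without names, and fewer cells and clusters than the study describes, so that the somite label rests on the marker genes. The 700 cells made up 11.8% of the D6 cells in the table (exact 95% interval 10.9 to 12.6%, Clopper-Pearson, counting error only). The D6 cells were mouse embryonic stem cells (mESCs) from blastocysts carrying the ScxGFP reporter, in which GFP marks cells that express the tendon transcription factor *Scx*. They had been aggregated into embryoid bodies with LDN-193189, an inhibitor of BMP receptors, and then driven toward PM with CHIR, an activator of WNT signaling, together with LDN-193189. No TGFβ1, SAG or FGF2, the agents of the later tendon culture, had been added by D6. The 2 other libraries were a D10 culture that had received those agents after D6, and the E14.5 mouse tail. Each was 1 library, cells are not replicates of a condition, and no test between groups was made. A culture of embryoid bodies has no body axis or neighboring tissues, which limits it as a model of the somite.

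The D6 library held 51858825 unique molecular identifiers (UMIs, each marking 1 captured transcript) in cells with 650 to 27108 UMIs. The somite-like cells had a median of 7709 UMIs and 3353.5 detected genes, and the other 5254 cells a median of 8268.5 UMIs and 3241 genes. The median mitochondrial share was 2.21% in the somite-like cells and 2.04% in the others. Ribosomal protein genes took a median of 8.91% of the UMIs of a somite-like cell and 12.3% in the others. The D6 library shared 10 cell barcodes with the D10 library and 3 with the tail, of which 0 and 1 were somite-like cells. Scrublet, which marks likely doublets, called 22 somite-like cells (3.14%) and 59 other cells (1.12%). Of the 22, 21 fell in a single group of 34 cells that is described with the sub-clusters and called the *Epcam* group. Levels that leaned most on these cells are given with and without them.

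Somites are paired blocks of paraxial mesoderm that bud off the presomitic mesoderm on both sides of the neural tube. Their ventral part, the sclerotome, forms vertebrae, ribs and, through the syndetome, axial tendons, and their dorsal part forms skeletal muscle and dermis. Retinoic acid made in the somites by the enzyme encoded by *Aldh1a2* opposes the FGF and WNT signals of the tailbud and keeps segmentation symmetric.

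Levels are given in CPM, the share of a gene in all UMIs of a group of cells, scaled to 1000000. Values in parentheses after a level or ratio are exact 95% intervals for counting error, Poisson for levels and conditional binomial for ratios. The clusters had been made from these same genes, so that a ratio of the somite-like cells to the other D6 cells describes the cluster and tests nothing. Of 13814 genes with at least 100 UMIs in the D6 library, 1301 (9.42%) were at least 2-fold higher in the somite-like cells and 2253 (16.3%) were at least 2-fold lower. The balance of higher and lower genes turned with the filter. With genes found in 10% or more of either group's cells the counts were 934 higher and 765 lower, and with no filter on low counts 7218 and 3521. The median log2 ratio over the 13814 genes was 0.02. Counts of list members given below are to be read beside the shares of 9.42% and 16.3% over all genes.

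The 4 genes that mark the cluster did not mark it equally. *Aldh1a2*, which makes retinoic acid from retinaldehyde, was at 223 CPM (211 to 235) in the somite-like cells and at 2.34 CPM in the other D6 cells, a ratio of 95.4 (78.3 to 117). The ratio was 140 without called doublets and 146 as a mean over cells. In the other clusters the level ranged from 0.786 CPM in code 3 to 4.52 CPM in code 2. *Rdh10*, which makes the retinaldehyde that *Aldh1a2* uses, was at 170 CPM (160 to 181) against 8.19 CPM, a ratio of 20.8 (18.5 to 23.5). *Crabp2*, which carries retinoic acid to its receptors in the nucleus, was at 67.0 CPM (60.6 to 73.8) against 10.5 CPM, but code 5, a cluster with high levels of *Col1a1*, *Bgn* and *Dcn*, held 62.4 CPM. Between these 2 clusters the *Crabp2* ratio was 1.07 (0.93 to 1.24). *Pax1*, a sclerotome transcription factor, had only 45 UMIs in the somite-like cells (7.40 CPM, 5.40 to 9.91) and 5 UMIs in all other D6 cells. The levels of *Aldh1a2* and *Rdh10* thus stood apart from every other D6 cluster, that of *Crabp2* did not, and that of *Pax1* rested on few UMIs.

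A wider set of somite genes was examined next. *Foxc1* and *Foxc2*, forkhead factors needed for somites to form, were at 221 and 64.5 CPM, with ratios of 73.7 (61.8 to 88.5) and 105 (71.8 to 161). The homeobox genes *Meox1* and *Meox2*, which pattern the somite, were at 187 and 31.6 CPM, with ratios of 73.2 (60.5 to 89.3) and 161 (82.9 to 357). *Uncx*, a gene of the caudal part of each somite, had 106 UMIs in the somite-like cells and 5 in the others. *Tbx18*, its rostral counterpart, was at 22.5 CPM against 2.42 CPM, with 14.8 CPM in code 5. *Tcf15*, which makes the somite epithelial, was at 113 CPM, but codes 1 and 2 also held 29.1 and 28.3 CPM. *Pax3*, a gene of presomitic mesoderm and dermomyotome, did not separate the cluster, with a ratio of 1.09 and levels of 38.0 CPM in code 1 and 41.3 CPM in code 3. Of the 9 epithelial somite genes that passed the filter, 8 were at least 2-fold higher and 0 at least 2-fold lower, with a median log2 ratio of 6.19.

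**Figure D1:**
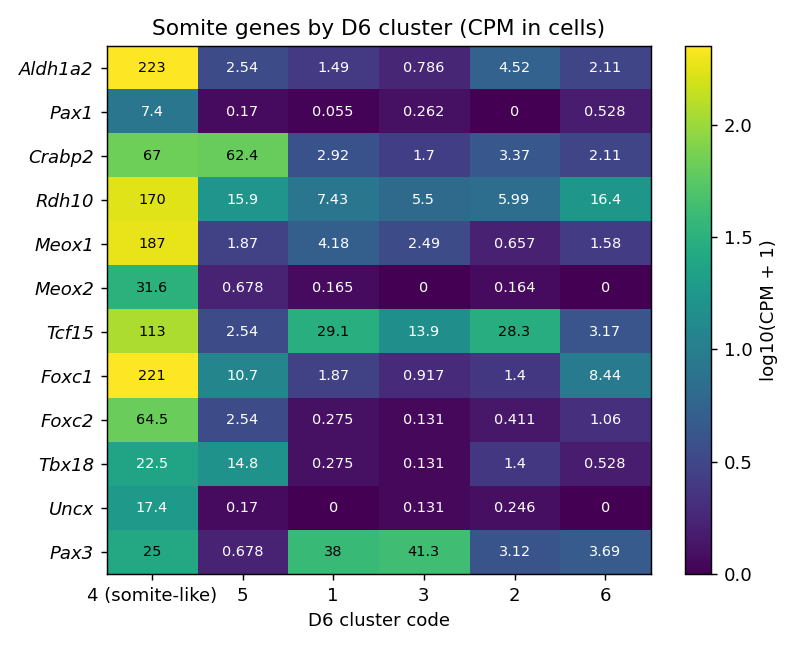
Level of 12 somite genes (rows) in the 6 D6 clusters (columns, by cluster code), with the color on a log10(CPM + 1) scale and the CPM printed in each cell. Code 4 holds the highest level of 11 genes, and *Pax3* is the exception, highest in code 3 at 41.3 CPM.

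The same genes were counted cell by cell. To make depths equal, 3000 UMIs were drawn from every cell that had as many, which left out 94 somite-like and 912 other cells. At that depth 38.4% of 606 somite-like cells had a UMI of *Aldh1a2* (34.6 to 42.5%), 41.9% of *Rdh10*, 16.7% of *Crabp2* and 1.98% of *Pax1*. Before thinning the shares were 62.4%, 62.7%, 31.7% and 4.57%. Free RNA also gives UMIs in cells that do not express a gene. In code 2, a cluster of cells with pluripotency genes and a median of 11208 UMIs against 7709 in the somite-like cells, the thinned shares were 0.980% for *Aldh1a2*, 1.74% for *Rdh10* and 0.654% for *Crabp2*. In code 5, however, 13.3% of 472 cells had a UMI of *Crabp2* (10.4 to 16.8%). For *Pax1* the count in code 2 was 0 of 918 cells (0 to 0.401%), where 3 cells would be 0.327%. *Foxc1* reached 46.2% of the somite-like cells, *Meox1* 30.9%, *Tcf15* 23.6%, *Foxc2* 16.8% and *Pax3* 4.95%. In code 2, *Foxc1* reached 0.327%, *Meox1* 0.109%, *Tcf15* 7.63% and *Pax3* 0.654%, and *Foxc2* was found in 0 of 918 cells. Code 2 held 38 of the 59 doublets called among the other D6 cells, and the part of doublets in its shares was not tested. *Pax3* was found in more cells of codes 1 and 3, at 9.95% and 9.67%, than of the somite-like cluster.

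The 12 somite genes include the 4 label markers, so that a count over them partly restates the label. Over the 12 together, a thinned somite-like cell had a median of 2 detected genes and a maximum of 8. At least 3 of the 12 were found in 261 of 606 cells, or 43.1% (39.1 to 47.1%), and in 5 of 4342 other cells, or 0.115%. A further 29 somite-like cells (4.79%) had none of the 12 at this depth. *Aldh1a2* and *Rdh10* were found together in 99 cells, or 16.3%, where independent detection at the same shares would give 16.1%.

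**Figure D2:**
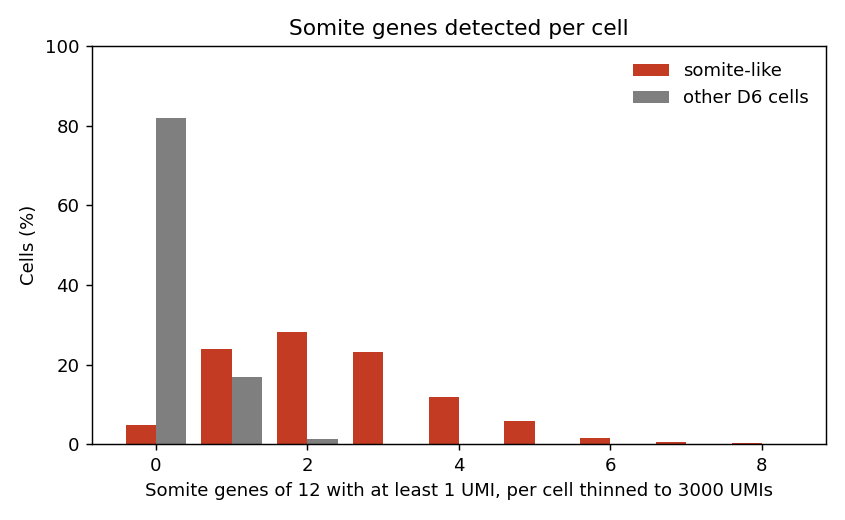
Share of cells (vertical axis, %) by the number of the 12 somite genes with at least 1 UMI after thinning to 3000 UMIs (horizontal axis), for 606 somite-like and 4342 other D6 cells. Other cells mostly have none (81.9%), and the somite-like cells spread from 0 to 8 genes.

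Presomitic and tailbud genes, which mark the mesoderm before somites form, were mostly lower than in the other D6 cells pooled, with a summed level of 125 CPM. Code 5 held less, at 36.6 CPM, and the other clusters from 245 to 442 CPM. The 442 CPM were in code 6, where *Rspo3* alone made up 395 CPM, against 46.7 CPM of *Rspo3* in the somite-like cells. Of 11 that passed the filter, 1 was at least 2-fold higher and 6 at least 2-fold lower, with a median log2 ratio of -1.65. *Sall4* was at 34.7 CPM in the somite-like cells against 151 CPM in the others, a ratio of 0.229 (0.199 to 0.263). *Fgf8*, a tailbud signal, was at 3.45 CPM against 10.9 CPM, and *T*, the founding transcription factor of mesoderm, was at 5.43 CPM against 9.46 CPM. *Tbx6*, which specifies presomitic mesoderm, had 6 UMIs in the somite-like cells and 70 elsewhere, under the filter. *Dll1*, a Notch ligand of the segmenting mesoderm, was the member that was higher, at 10.9 CPM against 4.89 CPM. *Mesp1* and *Mesp2*, which act where somites form, were counted with the epithelial somite genes. *Mesp1* was at 10.0 CPM against 0.939 CPM, while *Mesp2*, under the filter, had 2 UMIs against 48. *Cer1* and *Ripply2* of the same list had no UMI in the somite-like cells and 60 and 3 UMIs in the others. *Msgn1* and *Wnt3a* were not analysed here.

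Most listed sclerotome genes that passed the filter were higher than in the other D6 cells, but unevenly so, and *Pax1* was under the filter. Of 9 that passed the filter, 7 were at least 2-fold higher and 1 lower, with a median log2 ratio of 2.97. *Zic1*, a zinc finger gene of dorsal somite and neural tube, was at 791 CPM (769 to 814) against 4.74 CPM, a ratio of 167 (146 to 192), and 85.6% of thinned somite-like cells had a UMI of it against 1.31% in code 2. *Twist1*, a factor of mesenchyme, was at 536 CPM against 23.2 CPM, with 123 CPM in code 5. It was found in 73.6% of thinned somite-like cells, against 2.61% in code 2 and 27.5% in code 5. *Foxd1* was at 169 CPM with a ratio of 31.2 (27.1 to 35.9). The 2 genes that carry much of the cartilage program of the sclerotome were not higher. *Sox9* was at 10.7 CPM with a ratio of 0.712 and with 25.1 CPM in code 5, and *Pax9* was at 6.75 CPM against 21.8 CPM, with 38.4 CPM in code 1. *Col2a1*, a cartilage collagen, was at 33.7 CPM against 9.96 CPM.

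Genes of the dermomyotome and its muscle were split between few UMIs and large ratios. *Myf5*, the first myogenic factor, had 214 UMIs in the somite-like cells and 2 in all other D6 cells, *Myod1* had 30 and 1, and *Myf6* had 40 and 2. *Myog*, which drives muscle cells to differentiate, was at 78.6 CPM (71.7 to 86.0) with a ratio of 106 (74.7 to 155). Their upstream partner *Eya1* was at 57.9 CPM with a ratio of 11.4 (9.62 to 13.5). *Pax7*, of muscle progenitors, had 31 UMIs against 3. *Sim1* and *En1*, which mark the lateral and central dermomyotome, were at 2.47 and 0.823 CPM against 23.8 and 3.98 CPM. Of 10 members that passed the filter, 5 were at least 2-fold higher and 2 at least 2-fold lower. Of the somite-like UMIs of these genes, 409 of 478 for *Myog*, 27 of 30 for *Myod1* and 106 of 214 for *Myf5* came from 32 cells, described with the sub-clusters.

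Tendon genes were split, among regulators and matrix genes alike. *Scx* itself was at 50.2 CPM (44.7 to 56.1) in the somite-like cells and at 17.3 CPM in the others, a ratio of 2.90 (2.54 to 3.32), with 26.8 CPM in code 1 and 20.8 CPM in code 2. After thinning, 7.43% of the somite-like cells had a UMI of *Scx*, against 3.92% in code 2. *Mkx*, a second tendon transcription factor, was at 14.3 CPM with a ratio of 7.05 (5.20 to 9.54), and *Fbn2*, an embryonic fibrillin, at 537 CPM with a ratio of 28.0 (26.0 to 30.2). The FGF-responsive factors *Etv4* and *Etv5* were lower, with ratios of 0.146 (0.0847 to 0.235) and 0.0636 (0.0355 to 0.105). Without the *Epcam* group the *Etv4* ratio was 0.0556. *Col1a1*, the main tendon collagen, was at 146 CPM against 502 CPM, and *Dcn*, *Bgn* and *Postn*, proteins of mature matrix, were at 24.3, 28.6 and 4.61 CPM against 118, 234 and 80.1 CPM. Most of that level lay in code 5, at 3858 CPM for *Col1a1* and 1761 CPM for *Bgn*. The other clusters held less *Col1a1* than the somite-like cells, at 4.62, 8.37, 2.23 and 5.28 CPM in codes 1, 2, 3 and 6. They also held less *Dcn*, at 2.26, 2.13 and 2.10 CPM in codes 1, 2 and 3 and no UMI in code 6. *Bgn* was higher in code 6, at 77.0 CPM, and *Postn* in codes 1 and 3, at 13.7 and 11.9 CPM. *Col3a1*, an early fibrillar collagen, was at 815 CPM in the somite-like cells and 104 CPM in the others, but at 781 CPM in code 5. *Tnc*, a matrix glycoprotein, was at 29.0 CPM against 13.4 CPM, with 95.8 CPM in code 5. Of the 17 members that passed the filter, 7 were at least 2-fold higher and 7 lower. *Tnmd* was not analysed here.

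The retinoic acid genes were then followed through the pathway, since 3 of the 4 label markers belong to it. Retinol enters cells through *Stra6*, is oxidized by *Rdh10* and then by *Aldh1a2*, and is removed by the *Cyp26* enzymes. *Stra6* was at 403 CPM (387 to 419) in the somite-like cells and at 30.2 CPM in the others, a ratio of 13.4 (12.5 to 14.3). *Dhrs3*, which turns retinaldehyde back to retinol, was at 54.1 CPM against 14.8 CPM, with 64.1 CPM in code 5. *Rbp4*, the secreted retinol carrier, went the other way, at 12.2 CPM against 188 CPM, with 363 CPM in code 1. Without the *Epcam* group its level in the somite-like cells was 4.80 CPM. *Cyp26a1* was at 3.95 CPM (2.53 to 5.88) against 18.7 CPM, and *Cyp26b1* at 1.32 CPM against 12.5 CPM. The other retinaldehyde dehydrogenases, *Aldh1a1* and *Aldh1a3*, had no UMI in the somite-like cells, where 3 counts would be 0.494 CPM, and only 13 and 8 UMIs in all other D6 cells. The uptake and synthesis genes *Stra6*, *Rdh10* and *Aldh1a2* were thus higher in the somite-like cells. The lower *Cyp26* levels held against the other cells pooled and not against each cluster, since *Cyp26a1* was at 2.38 CPM in code 2 and had no UMI in code 5, and *Cyp26b1* was at 0.985 CPM in code 2.

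The receptors that passed the filter were within 2-fold of the other cells pooled, except for *Rarg*, which was lower. *Rara* was at 53.3 CPM with a ratio of 1.65 (1.46 to 1.86), *Rarb* at 18.9 CPM with a ratio of 0.88 (0.721 to 1.07) and *Rarg* at 6.09 CPM with a ratio of 0.424 (0.296 to 0.590). For *Rarg*, codes 1 and 3 were below the somite-like cells, at 4.18 and 1.31 CPM. Codes 2, 5 and 6 were above them, at 16.2, 58.2 and 16.9 CPM. Of 5 receptor genes that passed the filter, 0 were at least 2-fold higher and 1 lower. Genes known to respond to retinoic acid elsewhere were mostly higher, 15 of 19, with 1 lower and a median log2 ratio of 2.68. Among them *Nr2f1* and *Nr2f2*, orphan nuclear receptors, were at 108 and 132 CPM, with ratios of 17.6 (15.2 to 20.3) and 5.83 (5.31 to 6.40), and *Meis2*, a *Hox* cofactor, was at 370 CPM with a ratio of 9.26 (8.70 to 9.86). *Hoxb1* and *Hoxa5* had ratios of 24.5 (18.8 to 32.3) and 27.9 (22.1 to 35.6). Those that were not at least 2-fold higher included *Cdx1*, with a ratio of 0.54, and the textbook direct targets *Cyp26a1* and *Rarb*. These direct targets were at their highest in code 1, at 35.9 and 35.7 CPM.

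**Figure D3:**
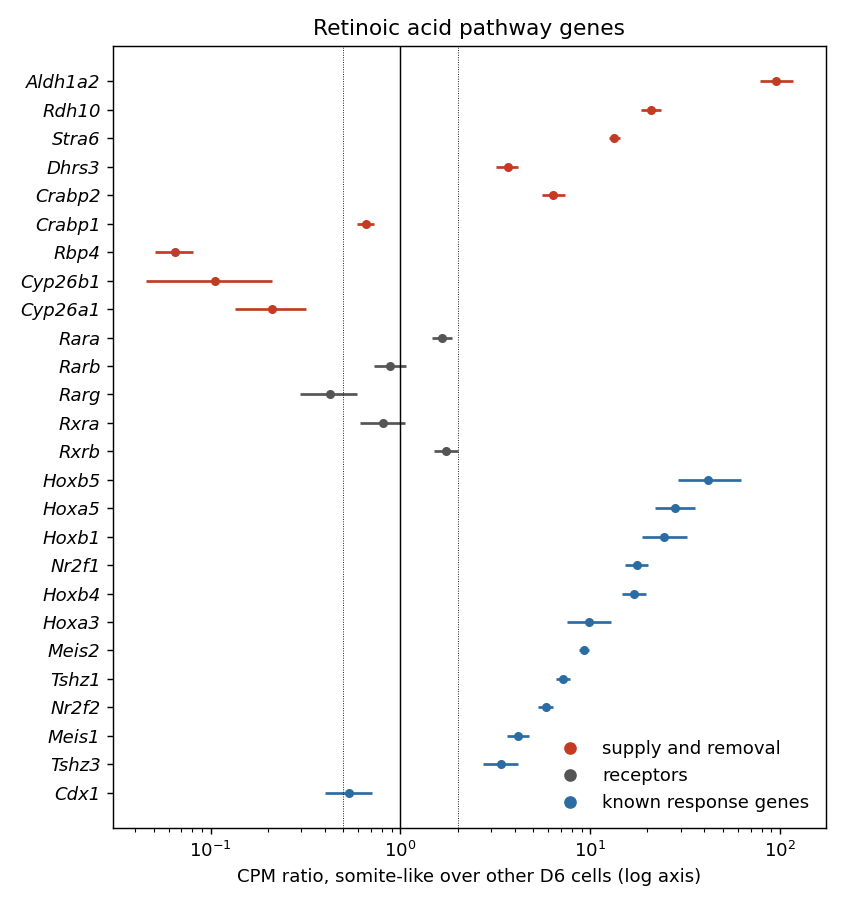
Ratio of CPM in somite-like over other D6 cells (horizontal log axis) for 26 genes of the retinoic acid pathway, with exact 95% counting intervals and dotted lines at ratios of 0.5 and 2. *Aldh1a2* lies farthest right at 95.4 and *Rbp4* farthest left at 0.0646, and the response genes in blue lie mostly right of 2.

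Retinoic acid receptors bind pairs of 6-base half-sites, and a direct repeat with 5 bases between them (DR5) is the classical element. The half-sites searched were AGGTCA or AGTTCA or GGGTCA or GGTTCA, with any 5 bases between them, on both strands, in RefSeq promoters of the GRCm38.p6 assembly from 250 bases before to 50 after the gene start. A match was found in 32 of 32851 promoters (0.0974%) and in 2 of the 41 promoters of the 26 genes on the retinoic acid lists that the table held, out of 34. Those 2 belong to *Cyp26a1* and *Rarb*, both among the response genes that were not at least 2-fold higher in the somite-like cells, and are shown with the promoter of *Aldh1a2*, the leading enzyme of the cluster, in which these letters do not occur. Capitals mark the DR5 match, which starts 32 bases before the gene start of *Cyp26a1* (chr19:37697558-37697857, plus strand) and 53 bases before that of *Rarb* (chr14:16575427-16575726, minus strand). The *Aldh1a2* promoter is at chr9:71215539-71215838, plus strand. A match is a description of sequence and shows no binding.
Cyp26a1: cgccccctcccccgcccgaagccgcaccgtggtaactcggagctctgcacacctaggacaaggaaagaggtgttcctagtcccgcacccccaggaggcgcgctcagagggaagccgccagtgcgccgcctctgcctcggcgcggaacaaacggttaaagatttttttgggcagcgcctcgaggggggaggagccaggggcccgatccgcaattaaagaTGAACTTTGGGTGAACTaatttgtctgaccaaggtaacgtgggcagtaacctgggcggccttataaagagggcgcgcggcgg
Rarb: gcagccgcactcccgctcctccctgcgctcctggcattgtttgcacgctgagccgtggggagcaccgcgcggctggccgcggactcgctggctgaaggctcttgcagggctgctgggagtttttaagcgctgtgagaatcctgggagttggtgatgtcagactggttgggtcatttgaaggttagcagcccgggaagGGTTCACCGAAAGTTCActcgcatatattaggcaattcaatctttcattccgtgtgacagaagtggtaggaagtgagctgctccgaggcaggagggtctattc
Aldh1a2: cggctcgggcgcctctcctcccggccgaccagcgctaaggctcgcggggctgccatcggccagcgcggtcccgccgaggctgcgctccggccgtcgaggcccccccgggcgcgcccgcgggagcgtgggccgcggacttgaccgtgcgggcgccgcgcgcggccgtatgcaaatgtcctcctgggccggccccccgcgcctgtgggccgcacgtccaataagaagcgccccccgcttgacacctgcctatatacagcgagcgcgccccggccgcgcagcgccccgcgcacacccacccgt

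*Hox* genes, which lie along their chromosomes in the order of their use along the body axis, were higher than in the other D6 cells in the anterior groups. Genes of paralogous groups 1 to 5 summed to 544 CPM in the somite-like cells, against 68.2 CPM in the other D6 cells and 85.6 CPM in code 5. Of the 11 of these that passed the filter, 9 were at least 2-fold higher and 0 lower. *Hoxb4* was at 100 CPM (92.2 to 108) with a ratio of 17.0 (14.7 to 19.6), *Hoxb2* at 123 CPM with a ratio of 11.0 (9.80 to 12.3) and *Hoxa4* at 19.9 CPM with a ratio of 60.8 (35.4 to 112). Groups 6 to 8 summed to 75.02 CPM, against 22.6 CPM in the other cells and 129 CPM in code 5, with 3 of 6 higher and 1 lower. Groups 9 to 13 summed to 46.1 CPM, against 29.0 CPM in the other cells, and *Hoxd9* alone held 37.8 CPM of it. Of their 7 genes that passed the filter, 6 were at least 2-fold lower, and 8 of the 16 had no UMI in the somite-like cells. Code 5 held the posterior genes at a summed 136 CPM, with *Hoxc9* at 16.6 CPM against 0.165 CPM in the somite-like cells and *Hoxa10* at 18.1 CPM against no UMI. The change from high to near 0 fell between groups 8 and 9 in the *Hoxb* cluster, at 17.4 CPM for *Hoxb8* and 0.658 CPM for *Hoxb9*, and between groups 9 and 11 in the *Hoxd* cluster, at 4.77 CPM for *Hoxd10* and 0.494 CPM for *Hoxd11*.

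**Figure D4:**
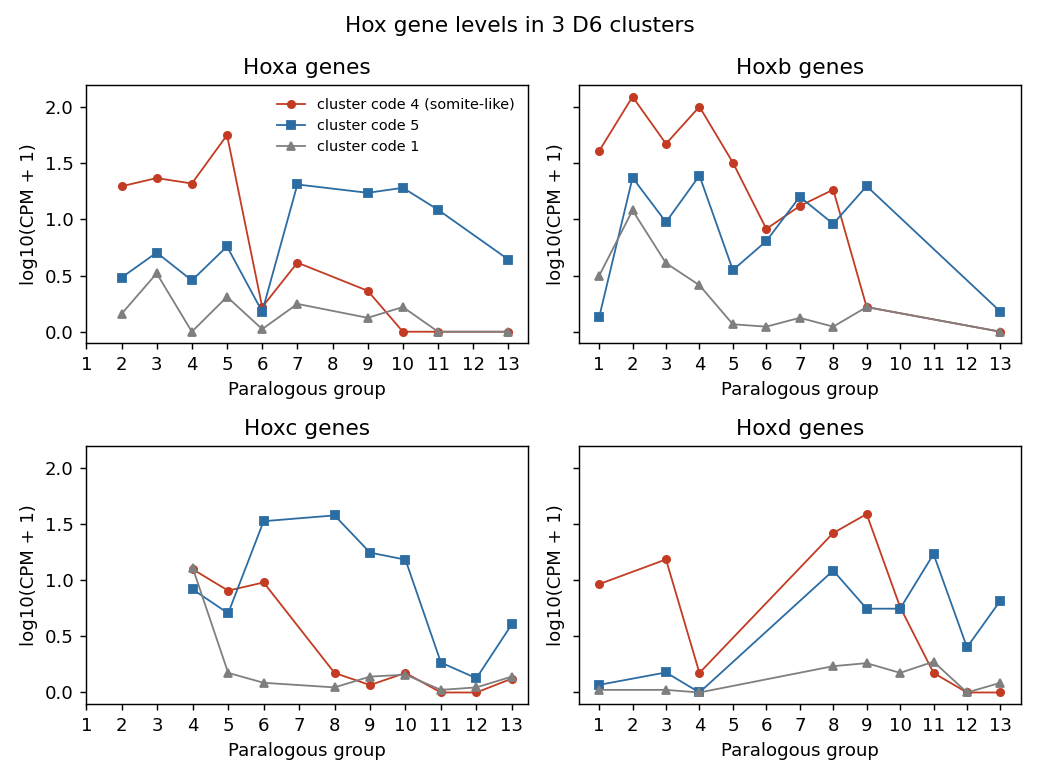
Level of *Hox* genes as log10(CPM + 1) (vertical axes) by paralogous group (horizontal axes), one panel per *Hox* cluster, in D6 cluster codes 4, 5 and 1. The somite-like cells (red) are highest for most groups 1 to 5 and near 0 beyond group 10, where code 5 (blue) is highest.

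Genes of the signals that pattern the somite followed. Of 12 hedgehog pathway genes that passed the filter, 8 were at least 2-fold higher and 3 lower. *Gli1*, a transcription factor and target of the pathway, had 147 UMIs against 34, a ratio of 32.6 (22.3 to 48.8), and the receptor and target *Ptch1* was at 204 CPM with a ratio of 3.79 (3.54 to 4.06). The coreceptor *Gas1* was at 128 CPM against 20.6 CPM. *Hhip*, another target, had 9 UMIs against 136, a ratio of 0.498 (0.223 to 0.974). The ligands were low, with 2 UMIs of *Shh* and 20 of *Ihh*, while code 1 held 9.74 CPM of *Shh* and 110 CPM of *Ihh*. Of the 20 *Ihh* UMIs, 11 lay in the *Epcam* group, without which *Ihh* was at 1.60 in place of 3.29 CPM.

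WNT feedback genes split into high and low members, with 5 of 13 at least 2-fold higher and 5 lower. *Axin2* and *Nkd1*, intracellular inhibitors, were at 136 and 234 CPM, with ratios of 5.43 (4.96 to 5.94) and 8.69 (8.05 to 9.39), and *Notum*, a secreted enzyme that inactivates WNT, was at 147 CPM with a ratio of 18.7 (16.5 to 21.2). *Dkk1*, *Lgr5* and *Rnf43*, a secreted inhibitor, a receptor and a ligase, were at 26.8, 0.823 and 1.81 CPM against 278, 21.7 and 16.0 CPM. Without the *Epcam* group *Dkk1*, *Lgr5* and *Rnf43* were at 10.1, 0.355 and 0.888 CPM. CHIR was in the medium of all D6 cells.

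Among BMP genes, 4 of 18 were at least 2-fold higher and 3 lower. The 4 were the ligands *Bmp4*, *Bmp5* and *Bmp7*, at 117, 83.4 and 79.6 CPM with ratios of 14.4 (12.7 to 16.4), 84.9 (62.5 to 118) and 3.56 (3.19 to 3.97), and *Fst*, an extracellular inhibitor, at 264 CPM with a ratio of 10.1 (9.35 to 10.9). The 3 lower members were the ligand *Bmp2*, at 24.0 CPM against 99.3 CPM, and the inhibitors *Grem1*, at 6.42 CPM against 58.1 CPM, and *Nog*, with 1 UMI in these cells. Of the 2661 *Grem1* UMIs in the other cells, 2629 lay in code 5, at 446 CPM. Codes 1, 2 and 3 held 0.550, 1.40 and 0.655 CPM of *Grem1*, and code 6 no UMI. The target genes *Id1*, *Id2* and *Id3* were within 2-fold of the other cells, with ratios of 1.51, 1.23 and 0.787. Of 16 FGF genes, 2 were higher and 7 lower, and the targets *Etv4* and *Etv5* were at 2.80 and 2.47 CPM against 19.2 and 38.8 CPM, whereas *Dusp6* was at 63.5 CPM against 16.3 CPM. In the TGFβ list 2 of 17 were higher and 4 lower, with *Tgfbr1* at 77.7 CPM against 36.0 CPM and *Tgfbr2* at 15.6 CPM against 17.3 CPM. In the Notch list 3 of 14 were higher and 6 lower. Over all 13814 genes 9.42% were higher and 16.3% lower. The FGF and TGFβ counts of higher genes and the BMP count of lower genes lay near these shares.

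Matrix genes were high in the somite-like cells and in code 5, with sums of 10257 and 8848 CPM over 27 genes. Of these, 18 were at least 2-fold higher and 3 lower, with a median log2 ratio of 2.97. *Vcan*, a proteoglycan of embryonic mesenchyme, was at 1464 CPM with a ratio of 13.9 (13.4 to 14.4), *Sparcl1* at 1355 CPM with a ratio of 55.4 (52.1 to 59.1), and *Ptn*, a heparin-binding growth factor, at 1212 CPM with a ratio of 81.4 (75.2 to 88.1). In code 5, *Vcan*, *Sparcl1* and *Ptn* were at 183, 139 and 14.1 CPM. The laminin chain *Lamc3* had 973 UMIs in the somite-like cells and 31 in the others. *Fn1* and *Nid1* were lower, at 173 and 49.8 CPM against 722 and 126 CPM, with 2093 and 827 CPM in code 5. *Cxcl12*, a chemokine that guides migrating cells, was at 265 CPM against 6.36 CPM, and its receptor *Cxcr4* at 3.29 CPM against 10.8 CPM (2.13 CPM without the *Epcam* group).

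Adhesion and guidance genes included 14 of 24 at least 2-fold higher and 4 lower. *Cdh11*, a cadherin of mesenchyme, was at 200 CPM with a ratio of 13.3 (12.1 to 14.6), and *Cdh1*, the epithelial cadherin, at 5.92 CPM against 84.0 CPM (1.42 CPM without the *Epcam* group). *Epha7* and *Epha3*, receptors that keep cell groups apart, had ratios of 37.6 (34.4 to 41.2) and 56.6 (37.8 to 88.0). Imprinted growth genes included 7 of 15 higher and 2 lower. *Cdkn1c*, an inhibitor of cell division, was at 1724 CPM with a ratio of 10.7 (10.4 to 11.0), *Mest* at 878 CPM with a ratio of 17.0 (16.2 to 17.8), and *Dlk1* at 673 CPM with a ratio of 36.2 (33.6 to 39.0). *Meg3* was lower, at 49.7 CPM against 163 CPM, and most of its UMIs were in code 5.

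Among genes with at least 50 CPM the largest ratio was that of *Zic4*, the neighbor of *Zic1* on its chromosome, at 188 CPM against 0.502 CPM, a ratio of 374 (248 to 592). The 20 largest of these ratios also held *Minar2*, *Scube1*, a secreted protein, *Cdh15*, a muscle cadherin, *Bmp3*, *Col9a1*, *Col26a1*, *Wif1*, a WNT inhibitor, and *Ntm*, a neural adhesion protein. The *Minar2* ratio was 231 (163 to 337), that of *Scube1* 162 (109 to 253) and that of *Cdh15* 146 (92.3 to 246). The 20 smallest ratios were led by *Ctla2a*, with 1 UMI in the somite-like cells, and held the embryonic globins *Hbb-bh1*, *Hba-x* and *Hbb-y*, the pluripotency genes *Dppa3*, *Utf1*, *Nanog*, *Sox2*, *Pou5f1* and *Dppa5a*, and the lysosomal genes *Lyz2*, *Ctsk* and *Gpnmb*.

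Markers of pluripotent, endoderm, endothelial and blood cells were low in the somite-like cells. All 15 pluripotency genes were at least 2-fold lower than in the other cells pooled. Their summed level was 104 CPM in the somite-like cells and 9816 CPM in code 2. Codes 1, 3 and 5 held 297, 261 and 152 CPM, and code 6 held less than the somite-like cells, at 84.9 CPM. All 8 endoderm genes that passed the filter were lower than in the other cells pooled. Their summed level was 120 CPM against 2507 CPM in code 1 and 98.5 CPM in code 5. All 9 endothelial and blood genes were lower, with a summed level of 21.7 CPM against 13942 CPM in code 6, and *Cdh5*, an endothelial cadherin, had 1 UMI. Across the sub-clusters the summed pluripotency level ranged from 46.0 to 670 CPM and the endoderm level from 26.8 to 1207 CPM, the highest in both cases in the *Epcam* group. Without that group the somite-like cells held 58.8 and 33.6 CPM.

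Other lineage lists were mixed. Of 5 neural genes that passed the filter, 3 were at least 2-fold lower and 1 was higher, *Nkx6-1* at 59.7 CPM against 2.51 CPM. *Sox1*, *Olig2* and *Neurog1* had no UMI. The neural list summed to 79.1 CPM against 180 CPM, with 531 CPM in code 2. Of 5 neural crest genes, *Ngfr*, *Snai2* and *Ets1* were higher, at 38.5, 29.8 and 62.5 CPM, while the defining *Sox10* had 4 UMIs. The crest list summed to 144 CPM against 39.3 CPM in the other cells pooled, with 224 CPM in code 6 and 93.4 CPM in code 5. The list of lateral plate, limb and heart genes summed to 354 CPM against 178 CPM, with 491 CPM in code 5. Of its 7 genes that passed the filter, 3 were higher and 4 lower. The 3 were *Bmp4*, *Prrx1*, at 195 CPM against 61.5 CPM with 444 CPM in code 5, and *Tnnt2*, a muscle troponin, at 25.8 CPM against 0.961 CPM. Of the 157 *Tnnt2* UMIs, 121 came from the 32 cells of the Myog group, and the other somite-like cells were at 6.34 CPM. The heart genes *Gata4* and *Gata5* were at 1.32 and 0.987 CPM. *Hand1*, *Hand2* and *Nkx2-5* had no UMI. *Lhx1*, of intermediate mesoderm and endoderm, was at 2.63 CPM against 45.8 CPM. All UMIs of *Gata4* and *Lhx1* and 5 of 6 of *Gata5* in the somite-like cells came from the *Epcam* group. Of 4 cranial mesoderm genes, *Msc* was higher, at 6.58 CPM against 2.82 CPM, and *Tbx1* and *Otx2* were lower. Of 20 cell cycle genes, *Ccnd2* was higher and *Ccnd1* lower than in the other cells pooled. Their summed level of 1956 CPM lay within the range of the other clusters, from 636 CPM in code 5 to 4307 CPM in code 3.

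Clustering of the 700 cells alone gave 6 sub-clusters (Leiden, resolution 0.5), which are named here by their leading genes and were described without a test. The largest held 228 cells (32.6%, 29.1 to 36.2%) with a median of 7523.5 UMIs and the highest levels of several somite genes of any sub-cluster. *Meox1* was at 299 CPM in it, *Tcf15* at 191 CPM, *Pax3* at 38.8 CPM and *Scx* at 92.2 CPM, which for *Scx* was 2.98 times (2.36 to 3.77) the level of the other somite-like cells. *Ptgds* led the list of this *Scx* and *Meox1* group by ratio, but 729 of its 1481 UMIs came from 1 cell. *Scx* UMIs were found in 53 of the 228 cells.

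A second sub-cluster of 124 cells (17.7%) was led by matrix genes and is called the collagen group. *Col3a1* was at 1931 CPM in it, *Col1a1* at 476 CPM, *Lum* at 210 CPM, *Tnc* at 128 CPM and *Eln* at 78.0 CPM. Its *Meox1* level was 24.5 CPM, 0.114 times (0.0711 to 0.173) that of the other somite-like cells, and *Uncx* and *Pax1* were at 4.46 and 1.11 CPM. *Foxc1* at 329 CPM, *Tbx18* at 45.7 CPM and *Bmp5* at 161 CPM were at the highest level of any sub-cluster, and *Aldh1a2* was at 215 CPM. *Meox1* and *Pax3* were thus highest in other cells than the collagen genes, while *Aldh1a2* was at 211 and 215 CPM in the 2 sub-clusters. At resolution 0.3 both fell into a single cluster of 359 cells, which held 227 and 123 of their cells, and at 0.8 the best-matching clusters held 120 of the 228 and 123 of the 124 cells, so that whether the 2 groups separate depended on the resolution.

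The Myog group of 32 cells (4.57%, 3.15 to 6.39%) was led by muscle genes. *Myog* was at 1028 CPM in it and found in 28 of its cells, against 12.1 CPM in the other somite-like cells, a ratio of 84.7 (65.5 to 111). *Myf5* was at 266 CPM, *Myod1* at 67.9 CPM and *Mef2c* at 407 CPM. *Ttn*, *Myh3*, *Actc1*, *Tnnc2* and *Des*, genes of the contractile apparatus, were at 1634, 362, 1121, 553 and 772 CPM. *Cdkn1c* was at 6177 CPM, 4.38 times (4.18 to 4.58) the level of the other somite-like cells, and *Mki67*, a marker of dividing cells, at 32.7 CPM. *Aldh1a2* was at 209 CPM and *Meox1* at 201 CPM in these cells, and 0 of them were called doublets.

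The cycling group of 136 cells (19.4%) had a median of 11404.5 UMIs, with *Mki67* at 531 CPM and *Top2a* at 795 CPM, and its *Aldh1a2* level was 215 CPM. The *Hist1h4i* group of 146 cells (20.9%) was shallower, with a median of 5359 UMIs and 2357.5 genes. It held *Hist1h4i* at 341 CPM, *Hoxa2* at 59.1 CPM, *Gadd45b*, a stress-response gene, at 269 CPM and *Twist1* at 868 CPM, together with the highest *Aldh1a2* level, 339 CPM. *Uncx* was at 36.5 CPM. The part of depth in its genes was not tested.

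The *Epcam* group of 34 cells (4.86%) had a median of 14324 UMIs, and 21 of its cells (61.8%) were called doublets. *Epcam* was at 621 CPM in it, *Sox17* at 238 CPM, *Krt18* at 1104 CPM and *Dppa5a* at 392 CPM, and *Aldh1a2* was still at 125 CPM. Without these cells the *Epcam* level of the somite-like cells went from 60.0 to 15.3 CPM and that of *Sox17* from 23.5 to 6.40 CPM. The counts of list members at least 2-fold higher were equal with and without them in 27 of the 28 lists. The exception was the tendon list, with 8 in place of 7. The counts at least 2-fold lower were equal except in the presomitic list, with 7 in place of 6, and the FGF list, with 8 in place of 7.

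**Figure D5:**
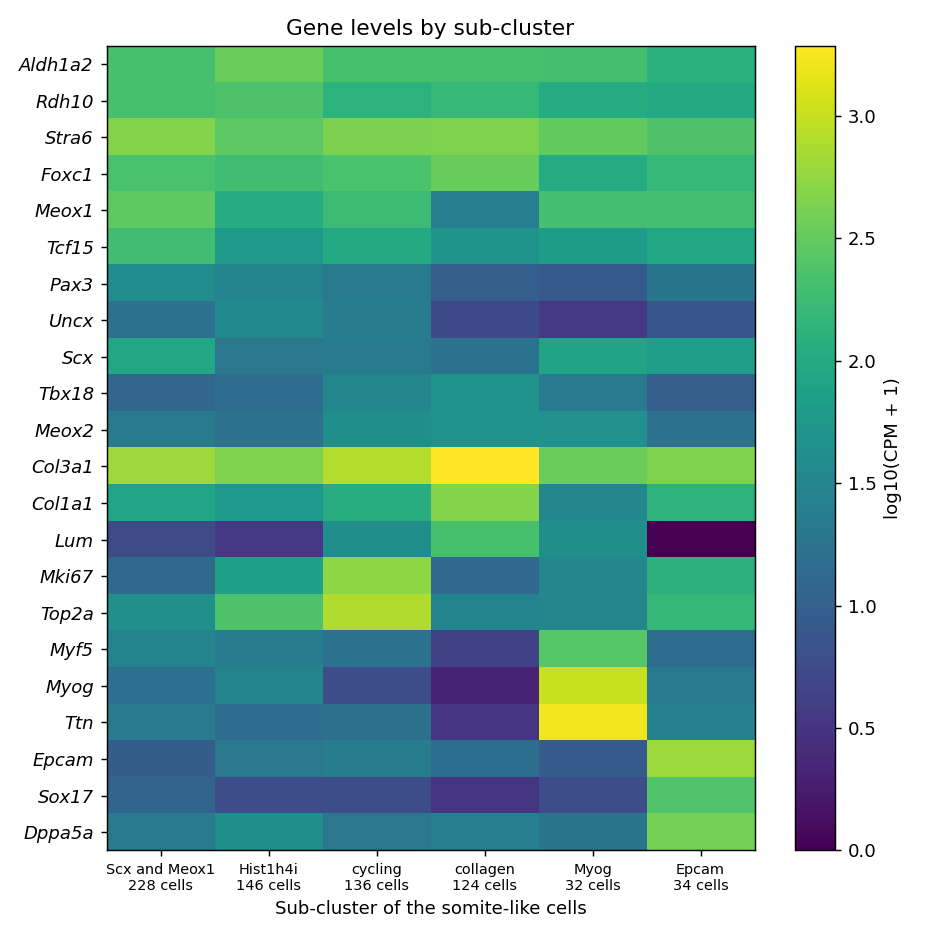
Level of 22 genes (rows) in the 6 sub-clusters of the somite-like cells (columns, with cell numbers), on a log10(CPM + 1) color scale. *Aldh1a2* lies between 125 and 339 CPM in all 6, whereas *Meox1*, *Col3a1*, *Mki67*, *Myog* and *Epcam* each stand out in a different column.

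The label markers were looked up in the other 2 libraries, by the authors' clusters of at least 50 cells. *Aldh1a2* reached at most 11.7 CPM (6.05 to 20.4) in a D10 cluster and 35.4 CPM (31.8 to 39.2) in a tail cluster, against 223 CPM in the somite-like cells at D6. *Rdh10* reached at most 43.9 and 38.6 CPM, against 170 CPM. *Crabp2* was higher in both, at 194 CPM (155 to 239) in a D10 cluster of 53 cells and 301 CPM (291 to 312) in a tail cluster, against 67.0 CPM. *Stra6* reached 10.1 and 19.8 CPM, against 403 CPM. *Pax1* went the other way, at 143 CPM (131 to 157) in its highest D10 cluster and 1073 CPM (1038 to 1109) in its highest tail cluster, against 7.40 CPM. *Meox1* was at 158 CPM in its highest D10 cluster, and at 56.5 CPM in its highest tail cluster, against 187 CPM in the somite-like cells. These are separate libraries, and time, medium and library cannot be told apart in them.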

How the data were processed

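Single-cell counts were analysed for 1 library each of D6 PM, D10 culture and E14.5 tail. The deposited values are counts of UMIs, 1 whole number for each gene in each cell, which the authors made with Cell Ranger from 10x 3′ libraries, ignoring multi-mapping reads, after depletion of dead cells. They removed cells with high mitochondrial shares and the extremes of transcript number, and clustered with Seurat 3.0. The highest remaining mitochondrial share in the D6 library was 7.50%. The genome reference is not given in the sources used here. Each file holds a cluster code per cell, and clusters were not made anew except within the 700 cells. The D6 library had a median of 8171 UMIs per cell, the D10 library 5622 and the tail 13512.

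The members and gene lists were chosen with earlier results of these data known. Levels are UMIs summed over a group and scaled to 1000000, so that deep cells weigh more. Genes with at least 100 UMIs over all D6 cells were compared, with a call at 2-fold. A group without a UMI was set to 3 counts over the group. Cells were thinned without replacement to 3000 UMIs. Genes named were members of the lists, the 20 largest and 20 smallest ratios with at least 50 CPM in the higher group, and the 10 leading genes of each sub-cluster. Sub-clusters used Scanpy 1.11.5 and leidenalg 0.10.2 (2000 variable genes, 30 components, 15 neighbors), and doublets Scrublet within Scanpy (expected rate 6%) for information only. The ratio rule was tested on simulated data with 200 changed genes. Cell cycle genes for an alternative came from Seurat 5.3.0. Python 3.11.15, NumPy 2.4.6, SciPy 1.17.1 and Matplotlib 3.10.9 were used, with seed 1. Alternatives left out doublets, cells under 1000 genes, the largest other cluster, or mitochondrial and ribosomal protein genes, and changed the filter, the weighting of cells, the thinning depth and the resolution. Some list members counted in the totals are not reported here by name. An alternative without the *Epcam* group was added after seeing the data.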

Additional observations from a re-analysis of the deposited data

How the results depend on the processing

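Of 68 values recomputed under other settings, 53 stayed within the limits set for them, 15 moved and 0 reversed. The *Aldh1a2* ratio of 95.4 was 140 without called doublets, 76.9 without the largest other cluster and 146 as a mean over cells. The *Crabp2* ratio of 6.40 was 4.34 without the largest other cluster and 5.38 as a mean over cells. The *Pax1* and *Rdh10* ratios stayed within their intervals in all 6 alternatives each. The 1301 genes at least 2-fold higher were 7218 with no filter on low counts, and the 2253 lower were 3521 with no filter and 765, with 934 higher, when a gene had to be found in 10% or more of either group's cells. The shares of somite-like cells with a UMI followed depth. *Aldh1a2* went from 38.4% to 55.8% at 5000 UMIs and 62.4% without thinning, *Rdh10* from 41.9% to 53.4% and 62.7%, *Crabp2* from 16.7% to 23.6% and 31.7%, and *Pax1* from 1.98% to 4.57% without thinning. Where not set by the depth or the filter itself, the cause was not tested. Without the *Epcam* group, chosen after seeing the data, 1334 genes were higher and 2324 lower. The sub-clusters numbered 5 to 7 over the settings tried, the *Epcam* group did not recur without called doublets, the Myog group shared 20 of its 32 cells with its best match without cell cycle genes, and at resolution 0.3 the collagen group joined the *Scx* and *Meox1* group.

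No paired analysis was possible because each condition had 1 library. All intervals cover counting error only, free RNA was not removed, and differences between conditions have no replicate check.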
